A study of Mus musculus with 58 samples.

Results

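A set of 10 cathepsin genes was described in microglia sorted from the mouse forebrain: Ctsa, Ctsb, Ctsd, Ctse, Ctsf, Ctsh, Ctsk, Ctsl, Ctss and Ctsz. They were taken by symbol from 25387 distinct gene symbols in 3 raw count tables. These tables list 24, 10 and 11 symbols that start with Cts, and the set leaves out Ctsc and Ctso, which are described apart. All 10 were listed in the table of the age series, 8 in the table of WT mice given antisense oligonucleotides (all but Ctse and Ctsk) and 9 in that of SgshKO mice given them (all but Ctsk). Every listed member passed the filter on low counts, as did every other row of the 2 oligonucleotide tables, which therefore hold no gene below it. Cathepsins are proteases that act mainly in the acidic lumen of endosomes and lysosomes. They are made as inactive proenzymes, carried to the lysosome largely by mannose 6-phosphate receptors, and switched on there by removal of a propeptide. Ctsd and Ctse use a pair of aspartates for catalysis, Ctsa is a serine carboxypeptidase, and the other members are papain-like cysteine proteases. Microglia, the resident macrophages of the brain, use them to degrade engulfed and autophagic protein and to process antigen.

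The study measured polyA RNA by single-end sequencing in 58 libraries that fall into 13 groups, all C57BL/6. In the age series, for which the labels give no treatment, WT mice gave 3 libraries at 3 weeks, 2 at 4 months and 4 at 8 months, and SgshKO mice gave 4, 2 and 7. Sgsh encodes the lysosomal sulfamidase that breaks down heparan sulfate, and its loss causes lysosomal storage (mucopolysaccharidosis IIIA). In the other groups, mice received 1 injection into a cerebral ventricle and microglia were taken 14 days later. WT mice received PBS, a non-targeting control antisense oligonucleotide (ntc ASO), or 1 of 3 targeting ASOs (Mitf, Tfeb or Tfe3), with 4 libraries each. SgshKO mice received the ntc ASO or the Mitf and Tfe3 ASOs in combination, with 8 libraries each in 2 subgroups of 4 that the titles call grp 1 and grp 2. All 3 targets encode related basic helix-loop-helix leucine zipper transcription factors that are known to act on lysosomal genes. The labels give no sex, no age of the injected mice and neither the allele nor the deleted part of Sgsh. Nothing says that the libraries of a group came from separate animals, so p-values measure the spread between libraries, which may be technical in part.

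Total counts ran from 8191508 to 27106584 per library for the age groups, from 14372015 to 30378870 for the WT mice given ASOs and from 12517838 to 30431437 for the SgshKO mice given them. Each target's transcript was checked first. Sgsh was lower in the SgshKO libraries at 8 months (log2 fold change -0.74 ± 0.16, adjusted p = 0.000583), and its values at 3 weeks (-0.32) and 4 months (-0.40) did not pass the test. Since the deleted part is not given, the remaining Sgsh transcript checks the label only in part. The Mitf ASO lowered Mitf by 4.81 on the log2 scale, the Tfeb ASO lowered Tfeb by 3.24, and the Tfe3 ASO lowered Tfe3 by 2.38. With the combination in SgshKO mice, Mitf fell by 2.26 and Tfe3 by 1.08. Without any ASO, Mitf was higher in SgshKO than in WT, by 0.47 at 3 weeks, 0.61 at 4 months and 0.84 at 8 months. All 7 microglial markers of a list (P2ry12, Tmem119, Cx3cr1, Csf1r, Sall1, Siglech and Trem2) were listed in all 3 tables. Their summed level was 28514 to 38475.5 normalised CPM in the WT libraries of the age series, 31329.5 to 34499 at 3 weeks, 17910.4 to 20339.7 at 4 months and 19786 to 22420.3 at 8 months in SgshKO.

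Within a library, levels of different genes were compared as deposited TPM values, which are scaled to transcript length and library size and were given for the age series alone. Ctsd, the main aspartic protease of lysosomes, had the highest level in all 6 groups, with 8116 ± 525 TPM (mean ± SD) at 3 weeks, 8414 ± 78.5 at 4 months and 9638 ± 305 at 8 months in WT. Ctss, a cysteine protease that stays active at neutral pH, came next with 3609 ± 185, 4685 ± 90.9 and 3845 ± 172 TPM. Ctsb, Ctsz and Ctsa followed in this order in every group, at 814 ± 17.5, 751 ± 72.0 and 509 ± 14.3 TPM in WT at 8 months. At 8 months the libraries of Ctsb and Ctsz overlapped in both genotypes, while no other neighbours among these 5 overlapped in any group. Ctsh, Ctsl and Ctsf had intermediate levels, between 148 TPM (Ctsf, SgshKO at 4 months) and 555 TPM (Ctsl, SgshKO at 8 months). Ctsh ranked above Ctsl in WT at all 3 ages and below it in SgshKO at all 3, although the libraries of this pair overlapped in WT at 3 weeks. Ctsf overlapped its neighbour Ctsh in SgshKO at 3 weeks and its neighbour Ctsl in WT at 8 months. Ctse and Ctsk were the lowest pair in every group, at 0.276 to 9.22 TPM for Ctse and 0.559 to 5.29 TPM for Ctsk. Their libraries did not overlap each other in WT at 4 months, where Ctsk was higher, and in SgshKO at 8 months, where Ctse was higher. Together the 10 members took 1.84% to 2.15% of all counts in the WT libraries of the age series. In SgshKO they took 3.13% to 3.59% at 3 weeks, 3.86% to 4.35% at 4 months and 4.79% to 5.74% at 8 months, and no library of an SgshKO group overlapped the WT libraries.

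**Figure D1:**
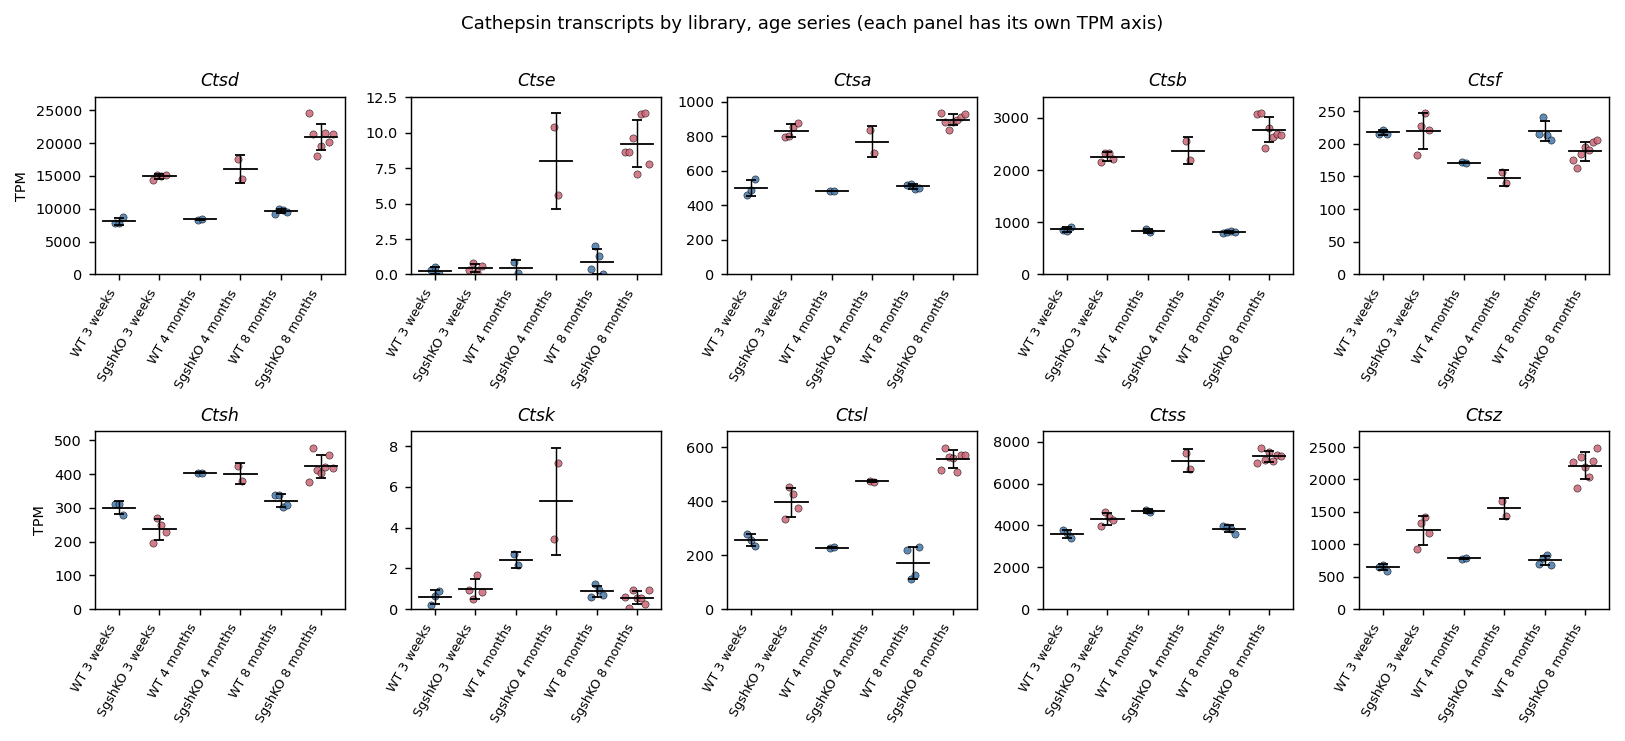
TPM of each of the 10 cathepsins (y axes, each with its own scale from 0) in every library of the age series by group (x axes); points are libraries, lines the mean and bars 1 SD. The SgshKO points of Ctsd, Ctsa, Ctsb, Ctsl, Ctss and Ctsz lie above the WT points at each age, while those of Ctsf do not.

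The promoter windows below are shown because MITF, TFEB and TFE3 bind E-boxes, and the ASOs target these 3 factors. RefSeq promoters (250 bases before to 50 after a start, GRCm38.p6) were matched by symbol for 7 of the 10 members: Ctsa, Ctsd, Ctsf, Ctsk, Ctsl, Ctss and Ctsz. The palindrome CACGTG was present in the promoters of 4 of the 7 (Ctsa, Ctsd, Ctsf and Ctsl), against 8.09% of the 27025 genes in the table, counting a gene if any of its promoters holds it. The M-box TCATGTG, searched on both strands, was present in 2 (Ctsa and Ctss, 4.31% of genes). The longer CLEAR element, whose core is the E-box, was searched only as a fixed string of 10 letters, and near matches were not counted. This exact string was found in none of the 7 and in 0.37% of genes, which does not show that these promoters lack variants of the element. A PU.1 site was found in 1 (Ctss, 3.69%). A match describes the letters and does not show binding. Distances are to the start of the RefSeq promoter, which for Ctsd and Ctsf is not the start in the gene positions given further below. The matches upstream of a start were as follows, 5′ to 3′ on the gene's strand, with the E-box in capitals.
Ctsa, chr2:164833749-164833772, + strand, 12 bases before the start: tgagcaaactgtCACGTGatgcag
Ctsd, chr7:142387908-142387937, − strand, 98 bases before the start: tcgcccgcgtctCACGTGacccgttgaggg
Ctsd, chr7:142388055-142388077, − strand, 245 bases before the start: tccccCACGTGacctgtatccag
Ctsf, chr19:4855074-4855103, + strand, 79 bases before the start: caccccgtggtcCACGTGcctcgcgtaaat
Ctsl, chr13:64370739-64370768, − strand, 236 bases before the start: ggcgttagaagcCACGTGctgatctaaatt

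Upstream of the start, the Ctsd promoter held the E-box at 2 places and the other 3 at 1 place. The Ctsa promoter held it at 2 places as well, with the second at or after the start. Of the members with an E-box, Ctsa, Ctsd and Ctsl were higher in SgshKO microglia and Ctsf was not; of those with none in this window, Ctss and Ctsz were also higher and Ctsk was not. Ctsk and Ctss are neighbours on chromosome 3. Some members share exon bases with other genes in the GENCODE vM21 annotation, and whether the counting used strand is not given in the sources used here. Ctsd shares 34.4% of its exon bases with Gm49369 on the same strand, a row that the 2 ASO tables list and the age table does not, and reads from the shared bases cannot be told apart. Ctsl shares 6.09% with the processed pseudogene Gm49230 on the same strand. On the opposite strand, Ctsl shares 26.8% with Gm47123, Ctsb 12.8% with Fdft1 and Ctsa 10.5% with Pltp.

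The first question was how cathepsin transcripts differ between SgshKO and WT at each age. Of the 10 members, 6 rose at 3 weeks (Ctsa, Ctsb, Ctsd, Ctsl, Ctss and Ctsz), 7 at 4 months (these and Ctse) and 8 at 8 months (these, Ctse and Ctsh), and none fell. Across all 14309 genes tested, 5.31% were higher and 3.72% lower at 3 weeks, 10.3% and 9.26% at 4 months, and 21.6% and 18.9% at 8 months. At the 3 ages the libraries of the genotypes did not overlap for 6, 9 and 8 of the 10 members, in either direction. Among all genes tested the shares without overlap were 22.5%, 58.1% and 25.2%, with only 2 libraries a group at 4 months. The median log2 fold change of the 10 members was 0.80, 1.05 and 1.17 at the 3 ages, beside -0.02, 0.02 and 0.02 for all genes tested. By class, both aspartic members and the serine member rose at 8 months, as did 5 of the 7 cysteine members. Fold changes below are log2 ± SE from edgeR's quasi-likelihood test with Benjamini-Hochberg adjustment over all genes tested, levels within a gene are normalised CPM (counts scaled to library size), and positions are those of the count tables (mm10). In sorted pools of cells, fewer cells of a type and less RNA per cell cannot be told apart.

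Ctsd (chromosome 7, 142375916 to 142387870, − strand), which also cleaves other cathepsin proenzymes, had levels of 9854, 9974 and 10883 in the 3 WT libraries at 3 weeks and 18635, 19801, 20239.9 and 20267 in the 4 SgshKO libraries. At 4 months the values were 10436 and 10502 in WT and 19265 and 23172 in SgshKO. At 8 months they were 11562, 11605, 12199.5 and 12504 in WT and 25117, 27823 and 33858 (lowest, median and highest) in the 7 SgshKO libraries. Every SgshKO library lay above every WT library of its age. The fold changes were 0.95 ± 0.08, adjusted p = 1.78e-08, at 3 weeks, 1.02 ± 0.11, adjusted p = 2.05e-07, at 4 months and 1.26 ± 0.07, adjusted p = 3.82e-13, at 8 months. Ctse (chromosome 1, 131638314 to 131675507, + strand), an aspartic protease of endosomes, had few reads: 0, 6 and 12 counts in WT and 3, 9, 12 and 24 in SgshKO at 3 weeks, 2 and 10 in WT and 94 and 122 in SgshKO at 4 months. At 8 months the counts were 0, 7, 37 and 56 in WT and 134, 154, 177, 295, 351, 360 and 383 in SgshKO. The genotypes overlapped at 3 weeks and were apart at 4 and 8 months. Its fold changes were 0.91 ± 0.84, adjusted p = 0.654, at 3 weeks, 4.29 ± 0.96, adjusted p = 0.00235, at 4 months and 3.36 ± 0.56, adjusted p = 2.84e-05, at 8 months. The call at 4 months rests on 2 libraries a group and was lost without WT replicate 2 (adjusted p = 0.0745).

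Ctsa (chromosome 2, 164833773 to 164841032, + strand), the carboxypeptidase that also protects beta-galactosidase and neuraminidase in the lysosome, was higher in SgshKO at all 3 ages. Its levels were 976, 1051 and 1159 in WT and 1739, 1812, 1928 and 1936 in SgshKO at 3 weeks. They were 1013 and 1019 in WT and 1570.3 and 1858 in SgshKO at 4 months. At 8 months WT libraries held 1022, 1041, 1095 and 1116 and SgshKO libraries 1938, 2063 and 2230.3 (lowest, median and highest of 7). The genotypes did not overlap at any age. In log2 terms Ctsa was higher by 0.80 ± 0.08, adjusted p = 9.37e-08, at 3 weeks, by 0.75 ± 0.10, adjusted p = 6.28e-06, at 4 months and by 0.96 ± 0.06, adjusted p = 1.54e-11, at 8 months.

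Of the cysteine members, Ctsb (chromosome 14, 63122462 to 63145923, + strand), an endopeptidase and dipeptidyl carboxypeptidase, had the highest fold change at 3 weeks. Its levels were 2575, 2610.2 and 2773 in WT and 6823, 7020.2, 7588 and 7617 in SgshKO at that age. They were 2451 and 2631 in WT and 7044 and 8222 in SgshKO at 4 months. At 8 months they were 2406, 2426, 2493 and 2515 in WT and 8226, 9317 and 10332 (lowest, median and highest of 7) in SgshKO. WT levels lay close together at the 3 ages, and no SgshKO library came near the WT range of its age. The rise of Ctsb came to 1.45 ± 0.08, adjusted p = 3.17e-12, at 3 weeks, 1.59 ± 0.10, adjusted p = 6.47e-11, at 4 months and 1.91 ± 0.07, adjusted p = 9.76e-17, at 8 months.

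Ctsl (chromosome 13, 64361890 to 64370520, − strand), an endopeptidase, had levels of 526, 587 and 635 in WT and 774, 876, 1031 and 1085 in SgshKO at 3 weeks. At 4 months they were 509 and 512 in WT and 1123 and 1131 in SgshKO. At 8 months they were 252, 283, 489.6 and 501 in WT and 1238, 1404 and 1461 in SgshKO. The 4 WT libraries at 8 months fell into a low and a high pair, and both lay below all 7 SgshKO libraries. For Ctsl the log2 fold changes were 0.69 ± 0.17, adjusted p = 0.0085, at 3 weeks, 1.14 ± 0.22, adjusted p = 0.000587, at 4 months and 1.85 ± 0.15, adjusted p = 3.67e-10, at 8 months, and the call at 3 weeks was lost without WT replicate 3 (adjusted p = 0.0536).

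Ctsz (chromosome 2, 174427494 to 174439039, − strand), a carboxypeptidase, had levels of 547, 605 and 645 in WT and 881, 1134, 1315 and 1413 in SgshKO at 3 weeks. At 4 months they were 715 and 725 in WT and 1405 and 1628 in SgshKO, and at 8 months 611, 643, 735 and 760.2 in WT and 1800.0, 2299 and 2619 in SgshKO. All SgshKO libraries were above the WT libraries of their age, and those at 8 months were the highest. Ctsz differed by 0.98 ± 0.13, adjusted p = 1.08e-05, at 3 weeks, 1.07 ± 0.17, adjusted p = 6.38e-05, at 4 months and 1.71 ± 0.11, adjusted p = 1.27e-11, at 8 months. Ctss (chromosome 3, 95526786 to 95556405, + strand), which trims the invariant chain of MHC class II in antigen-presenting cells, had levels of 2959, 3228 and 3308 in WT and 3554, 3847, 4119 and 4318 in SgshKO at 3 weeks. At 4 months they were 3981 and 4120.2 in WT and 6162 and 6859.9 in SgshKO, and at 8 months 3044, 3310.5, 3451 and 3468 in WT and 6666, 6998 and 7241 in SgshKO. The gap between the genotypes was narrow at 3 weeks and wide at 8 months, with no overlap at any age. Ctss was higher by 0.32 ± 0.07, adjusted p = 0.00363, at 3 weeks, 0.68 ± 0.09, adjusted p = 9.85e-06, at 4 months and 1.07 ± 0.06, adjusted p = 8.12e-13, at 8 months. At 3 weeks the call was lost with limma on TPM at a pseudocount of 0.1 (adjusted p = 0.0705). Limma on TPM over every gene above 0 lost the Ctss calls at 3 weeks (adjusted p = 0.495) and 4 months (adjusted p = 0.0799), those of Ctsd at both ages (adjusted p = 0.215 and 0.223) and that of Ctsl at 3 weeks (adjusted p = 0.0554).

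The other 3 cysteine members behaved differently. Ctsh (chromosome 9, 90054267 to 90076095, + strand), mainly an aminopeptidase, had levels of 288, 325 and 330.0 in WT and 209, 248, 279 and 298 in SgshKO at 3 weeks, where the genotypes overlapped. At 4 months they were 416 and 418 in WT and 414 and 464 in SgshKO, and at 8 months 309, 310.4, 351 and 353 in WT and 430.1, 473 and 518 in SgshKO, where they no longer overlapped. The log2 fold change of Ctsh was -0.28 ± 0.10, adjusted p = 0.0828, at 3 weeks, 0.07 ± 0.13, adjusted p = 0.746, at 4 months and 0.54 ± 0.08, adjusted p = 1.17e-05, at 8 months. At 3 weeks it was called lower by DESeq2 (adjusted p = 0.0248) and by limma on TPM (adjusted p = 0.019). Ctsf (chromosome 19, 4855129 to 4860912, + strand), a papain-like protease with a long propeptide, passed the test at no age (0.08 ± 0.10, -0.12 ± 0.14 and -0.07 ± 0.09, with adjusted p-values of 0.784, 0.594 and 0.538). Limma on TPM called it lower at 8 months (-0.22, adjusted p = 0.021). At 8 months the SgshKO libraries (215 to 297) overlapped the WT libraries (252 to 306). Ctsk (chromosome 3, 95499210 to 95509387, + strand), the collagen-cleaving protease for which osteoclasts are known, had between 1 and 89 counts in any library and did not pass either (0.80 ± 0.68, 1.22 ± 0.84 and -0.50 ± 0.54, with adjusted p-values of 0.617, 0.345 and 0.49).

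**Figure D2:**
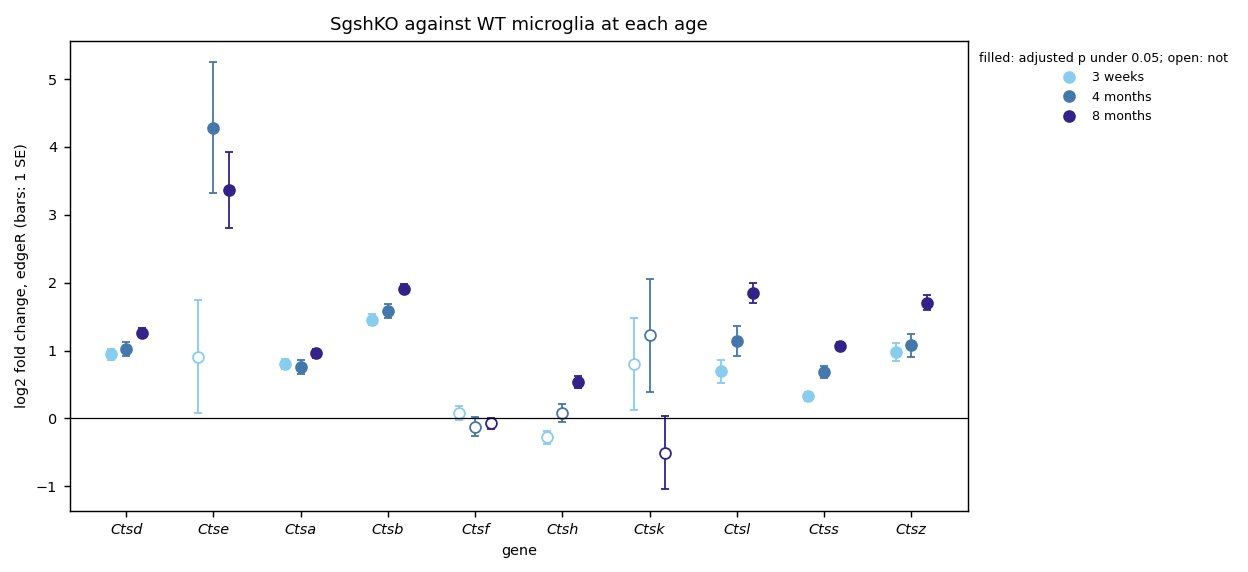
Log2 fold change of SgshKO against WT (y axis, bars 1 SE, edgeR) for each cathepsin (x axis) at 3 ages; filled points passed an adjusted p of 0.05. Ctsd, Ctsa, Ctsb, Ctsl, Ctss and Ctsz are filled at all 3 ages, Ctse at 4 and 8 months and Ctsh at 8 months, and Ctsf and Ctsk are open throughout.

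Markers of other cells moved with genotype too, most of all at 4 and 8 months. The summed level of 10 neutrophil markers was 1.08 to 7.68 in WT libraries, 1.74 to 31.5 in SgshKO at 3 weeks, 3012 and 14866 in the 2 SgshKO libraries at 4 months and 432 to 5823 at 8 months. All 10 had counts in SgshKO at 4 and 8 months, whereas Elane was at 0 in every WT library. Of the 7 microglial markers, 6 were lower in SgshKO at 8 months and 1 higher. The 6 monocyte markers summed to 6.42 to 13.9 in WT, 326 to 1406 in SgshKO at 4 months and 49.8 to 457 at 8 months. At these 2 ages the SgshKO sums mainly followed Chil3, with means of 819 and 129. In WT the highest of the 6 was Ccr2, with means of 6.95 to 8.73 over the 3 ages. The 8 markers of border macrophages summed to 55.3 to 76.0, 9.46 to 10.5 and 15.9 to 32.2 in WT at the 3 ages and to 83.1 to 109, 129 to 136 and 71.3 to 113 in SgshKO. Without the SgshKO libraries highest in neutrophil markers (replicate 2 at 4 months, replicates 1 and 3 at 8 months), 7 members were still called at 4 months and 8 at 8 months. The neutrophil sums of the SgshKO libraries that remained were still 3012 at 4 months, in a single library, and 432 to 817 at 8 months. The microglial sum at 8 months was 19786 to 22420 in SgshKO libraries, below the 28514 to 34661 of WT. At the same age the sum of 5 osteoclast markers, led by Acp5, was 28.5 to 47.9 in SgshKO against 0.472 to 1.33 in WT, with Calcr at 0 in both. Sums of 5 endothelial markers, led by Pecam1, did not overlap there (42.5 to 56.9 in WT, 14.0 to 27.2 in SgshKO), and those of 6 astrocyte markers, led by Slc1a3, did (287 to 402 and 175 to 294). At 3 weeks neither list overlapped: WT libraries had astrocyte sums of 153 to 165 and endothelial sums of 51.7 to 65.7, and SgshKO libraries 191 to 265 and 26.4 to 31.1. Pecam1 alone had means of 58.3 in WT and 27.3 in SgshKO at 3 weeks, and of 50.2 and 9.46 at 8 months. The lower endothelial sums in SgshKO thus follow this gene and do not describe the other markers of that list. Sums over 6 oligodendrocyte markers (118 to 147 in WT, 146 to 161 in SgshKO) and 5 neuronal markers (1.33 to 4.02 and 3.06 to 4.23) overlapped at 8 months. The part of any of these markers in the cathepsin results was not tested.

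Whether the genotype difference itself changed with age was tested as an interaction. From 3 weeks to 8 months it became higher for 5 of the 10 members, where 5.98% of all genes tested had a higher and 3.26% a lower difference. The change in log2 fold change was 1.15 ± 0.22, adjusted p = 0.000981, for Ctsl and 0.82 ± 0.13, adjusted p = 0.000142, for Ctsh. It was 0.75 ± 0.09, adjusted p = 6.45e-06, for Ctss, 0.72 ± 0.17, adjusted p = 0.00641, for Ctsz and 0.46 ± 0.10, adjusted p = 0.00284, for Ctsb. Between these ages Ctsl fell by 0.61 in WT, a call lost in 7 of 33 alternatives, and rose by 0.54 in SgshKO. The Ctsh fold change went from -0.28 at 3 weeks, which did not pass, to 0.54 at 8 months. Ctsd (0.32 ± 0.10, adjusted p = 0.0549) and Ctsa (0.15 ± 0.10, adjusted p = 0.383) did not pass, nor did Ctse (2.45 ± 1.03, adjusted p = 0.152). Ctsd was called, however, by DESeq2 (adjusted p = 0.0208) and by edgeR with RLE factors (adjusted p = 0.0392), and Ctse by limma on TPM (adjusted p = 0.000666). Limma on TPM over every gene above 0 lost the calls of Ctss (adjusted p = 0.0975) and Ctsb (adjusted p = 0.0992). No member passed from 3 weeks to 4 months in edgeR (2.52% of all genes tested, either direction), where 3 members and 2312 of 14309 genes had an unadjusted p under 0.05 and DESeq2 called 1, Ctss (adjusted p = 0.0104). None passed from 4 to 8 months either (0.391% of all genes), where 5 members and 1641 genes had an unadjusted p under 0.05 and DESeq2 called 1, again Ctss (adjusted p = 0.0298).

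Within WT, few members passed a test between ages. From 3 weeks to 4 months Ctsh (0.41 ± 0.12, adjusted p = 0.0436) and Ctss (0.36 ± 0.08, adjusted p = 0.0133) rose, against 5.21% of all genes in either direction. From 4 to 8 months Ctss fell by 0.29 (adjusted p = 0.034), against 5.77% of all genes, and from 3 weeks to 8 months Ctsl fell by 0.61 (adjusted p = 0.0225), against 7.65%. Each of these WT calls was lost without 1 or another library: the count was 0 without WT replicate 3 at 3 weeks or either WT library at 4 months for the first, 0 without either WT library at 4 months or WT replicate 3 or 4 at 8 months for the second, and 0 without WT replicate 1 or 2 at 3 weeks or 2 or 3 at 8 months for the third. The levels of Ctsd, Ctsa, Ctsb and Ctsz passed no test between ages in WT in the main edgeR model. Ctsd at 8 months against 3 weeks (0.23, adjusted p = 0.0914) was, however, called higher in 6 of 33 alternatives, among them DESeq2 (adjusted p = 0.0459).

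Within SgshKO, more members moved. From 3 weeks to 4 months Ctse (4.00 ± 0.69, adjusted p = 0.000113), Ctsk (2.44 ± 0.70, adjusted p = 0.00921), Ctsh (0.76 ± 0.11, adjusted p = 1.36e-05) and Ctss (0.72 ± 0.08, adjusted p = 3.63e-07) rose and Ctsf fell by 0.57 (adjusted p = 0.000966), against 32.7% of all genes in either direction. From 4 to 8 months Ctsd (0.44), Ctsa (0.28), Ctsb (0.28), Ctsf (0.40) and Ctsz (0.56) rose and Ctsk fell by 3.16, against 19.8% of all genes. Neither these 6 calls nor the rise of Ctsk from 3 weeks to 4 months was made without SgshKO replicate 2 at 4 months, the library with the highest neutrophil sum, and this leaves a single library at that age. From 3 weeks to 8 months 7 members rose, against 30.6% of all genes: Ctse (4.26 ± 0.61, adjusted p = 7.9e-06), Ctsz (0.92 ± 0.11, adjusted p = 6.43e-07), Ctsh (0.89 ± 0.08, adjusted p = 1.78e-08), Ctss (0.81 ± 0.06, adjusted p = 3.4e-10), Ctsd (0.54 ± 0.07, adjusted p = 1.1e-06), Ctsl (0.54 ± 0.14, adjusted p = 0.00446) and Ctsb (0.35 ± 0.06, adjusted p = 0.000123). This count was 7 or 8 with any 1 library left out. Ctsf was lowest and Ctsk highest at 4 months in both genotypes. Ctsk counts were 3, 11 and 16 at 3 weeks, 23 and 30 at 4 months and 8, 9, 20 and 26 at 8 months in WT, and 11, 12, 19 and 21, 30 and 89, and 1, 6, 9, 11, 12, 18 and 28 in SgshKO.

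Among other cathepsins, Ctsc, the dipeptidyl peptidase that activates granule serine proteases, rose at 8 months in SgshKO (0.44 ± 0.10, adjusted p = 0.000909) and did not pass at 3 weeks (0.12) or 4 months (0.20). Ctso passed no comparison, with -0.04 at 8 months. Ctsg, a serine protease of neutrophil granules, had 0 counts in all WT libraries and at 3 weeks in SgshKO. Its counts were 1 and 16 in SgshKO at 4 months, and at 8 months 11 and 22 in replicates 1 and 3, which were highest in neutrophil markers there, and 0 in the other 5. Ctsw had 0 to 25 counts in any library, and was called lower at 4 months on 5 and 6 counts in WT and 0 in both SgshKO libraries (adjusted p = 0.0342).

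Genes that act with cathepsins were described from lists chosen by role, with earlier results of these data known. Across all genes tested, 5.31% were higher at 3 weeks, 10.3% at 4 months and 21.6% at 8 months. At these ages 3.72%, 9.26% and 18.9% were lower. Of 5 other lysosomal peptidases, 3 rose at each age, and Dpp7, a dipeptidyl peptidase, gave 1.71, 1.85 and 2.15 at 3 weeks, 4 months and 8 months. Scpep1 (1.01 at 8 months) and the tripeptidyl peptidase Tpp1 (0.72) also rose, while legumain, Lgmn, which cleaves cathepsin proenzymes, fell by 0.46 at 4 months and 0.20 at 8 months. Of 7 genes of the sorting of lysosomal proteases, 2, 4 and 6 rose at the 3 ages, and at 8 months Sort1 fell by 0.43, a gene named after its value was seen. At 8 months Igf2r, a mannose 6-phosphate receptor, rose by 2.29, Gnptg by 0.95, Sorl1 by 0.89 and Gnptab by 0.81. Of 8 inhibitors and chaperones, 5, 7 and 7 rose. Cst7, which encodes cystatin F, an inhibitor of cysteine cathepsins, gave 1.77, 5.49 and 5.61. At 8 months Cd74, the invariant chain that Ctss trims, rose by 2.70 and Serpinb6a by 2.60. Serpinb1a had 0 to 4 counts in any WT library and 40 to 762 in SgshKO at 8 months. Glb1 and Neu1, the enzymes that Ctsa protects, both rose at all 3 ages, at 8 months by 1.53 and 0.65. Ctse had the highest fold change at 8 months among the members that rose. The 3 genes nearest to it in log2 level over 22 libraries, each centred on its mean, were Cyp4f18 (root mean square difference 0.789), Actr3b (1.16) and 1700071M16Rik (1.19).

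The ASO groups asked how cathepsin transcripts in WT microglia respond when each factor is lowered. The comparisons with the Mitf, Tfeb and Tfe3 ASOs all share the 4 ntc ASO libraries. The ntc ASO against PBS gave no call among the 8 listed members or among all genes (0% of 10277). At an unadjusted p under 0.05 it gave 3 members and 415 genes in edgeR, and DESeq2 called none of the members. The members' fold changes ran from 0.03 to 0.12. Of the 8 members, 6 rose with the Mitf ASO (Ctsa, Ctsb, Ctsd, Ctsl, Ctss and Ctsz), where 5.77% of all genes were higher and 5.21% lower. With the Tfeb ASO 3 rose (Ctsa, Ctsb and Ctss), where 0.564% were higher and 0.214% lower, and with the Tfe3 ASO 3 rose (Ctsb, Ctsd and Ctss), where 1.46% were higher and 0.701% lower. No member fell with any ASO. The libraries of 6, 1 and 3 members did not overlap those of the ntc ASO with the Mitf, Tfeb and Tfe3 ASOs. Among all genes these shares were 7.67%, 4.07% and 4.68%. The members' median log2 fold change was 0.52, 0.23 and 0.08 with the 3 ASOs, beside -0.01, 0.01 and -0.01 for all genes.

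Ctsd had levels of 14639, 14778, 15449 and 16052 with the ntc ASO and 20254, 21542, 21716 and 22460.1 with the Mitf ASO. It had 15682, 17010.5, 17919 and 18518 with the Tfeb ASO and 19172, 19375, 19842 and 20843 with the Tfe3 ASO. All libraries of the Mitf and Tfe3 ASOs lay above those of the ntc ASO, and those of the Tfeb ASO overlapped them. The fold changes were 0.50 ± 0.04, adjusted p = 6.28e-07, for the Mitf ASO, 0.18 ± 0.04, adjusted p = 0.054, for the Tfeb ASO and 0.38 ± 0.04, adjusted p = 7.29e-05, for the Tfe3 ASO. Ctsa had levels of 1154, 1221, 1249 and 1464 with the ntc ASO, 1802, 1937, 1960.2 and 2085 with the Mitf ASO, 1460.0, 1492, 1575 and 1612 with the Tfeb ASO and 1250.3, 1275, 1299 and 1341 with the Tfe3 ASO. The Mitf libraries alone were clear of the ntc libraries. For Ctsa the fold change was 0.62 ± 0.04, adjusted p = 4.39e-08, with the Mitf ASO, 0.27 ± 0.04, adjusted p = 0.0028, with the Tfeb ASO and 0.03 ± 0.04, adjusted p = 0.813, with the Tfe3 ASO.

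Ctsb had levels of 3151, 3172, 3482 and 3770.2 with the ntc ASO and 5642, 5798, 5890.3 and 6557 with the Mitf ASO. It had 3689.9, 4115, 4182 and 4526 with the Tfeb ASO and 4328, 4379, 4493 and 4647 with the Tfe3 ASO. The Mitf and Tfe3 libraries lay above all ntc libraries, and 1 Tfeb library did not. Ctsb differed from the ntc ASO by 0.82 ± 0.04, adjusted p = 2.37e-09, with the Mitf ASO, 0.28 ± 0.04, adjusted p = 0.00302, with the Tfeb ASO and 0.40 ± 0.04, adjusted p = 7.29e-05, with the Tfe3 ASO. Ctss had levels of 5518, 6144, 6312 and 6355 with the ntc ASO, 7343, 7704, 7943 and 8246 with the Mitf ASO, 6939, 6971, 7129 and 7715 with the Tfeb ASO and 6719, 6912, 7127 and 7416 with the Tfe3 ASO. It was the member whose libraries were clear of the ntc libraries with all 3 ASOs. Ctss gave 0.36 ± 0.04, adjusted p = 1.04e-05, with the Mitf ASO, 0.24 ± 0.04, adjusted p = 0.00366, with the Tfeb ASO and 0.21 ± 0.04, adjusted p = 0.00658, with the Tfe3 ASO.

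Ctsl had levels of 794, 915, 923 and 959 with the ntc ASO and 1119, 1293, 1404 and 1454 with the Mitf ASO, and Ctsz had 735, 859, 875 and 1022 and 1178, 1295, 1374 and 1501. Both were apart from the ntc ASO with the Mitf ASO. Their fold changes with it were 0.55 ± 0.05, adjusted p = 2.71e-06, and 0.62 ± 0.07, adjusted p = 1.83e-05. With the Tfeb ASO they were 0.21 ± 0.05, adjusted p = 0.0762, and 0.27 ± 0.07, adjusted p = 0.0763, and with the Tfe3 ASO 0.07 ± 0.05, adjusted p = 0.556, and 0.10 ± 0.07, adjusted p = 0.518. Ctsf and Ctsh passed no ASO test in WT mice. Ctsf gave 0.03 ± 0.05, 0.11 ± 0.05 and 0.01 ± 0.05, and Ctsh gave 0.11 ± 0.05, 0.12 ± 0.05 and -0.03 ± 0.05. The count of 6 with the Mitf ASO held under every alternative tried, while that with the Tfeb ASO was 0 without the block on the grp number and 6 with DESeq2, and the Ctss call of the Tfe3 ASO was lost without that block (adjusted p = 0.168). Without the PBS library of replicate 1, which enters only the shared spread, the count with the Tfeb ASO was 6. Ctss lost its Tfeb ASO call without replicate 1 of either treatment (adjusted p = 0.0563 and 0.0507). Summed over 7 microglial markers, levels were 39790 to 43434 with the ntc ASO and 35507 to 38675 with the Mitf ASO, with no overlap, and the part of this in the Mitf ASO results was not tested. Of 8 border macrophage markers this table lists Mrc1 alone, at 28.9 to 49.3 with the ntc ASO and 39.1 to 56.2 with the Mitf ASO (0.30 ± 0.15, adjusted p = 0.198), and its part in these results was not tested. None of the 10 neutrophil markers was listed.

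**Figure D3:**
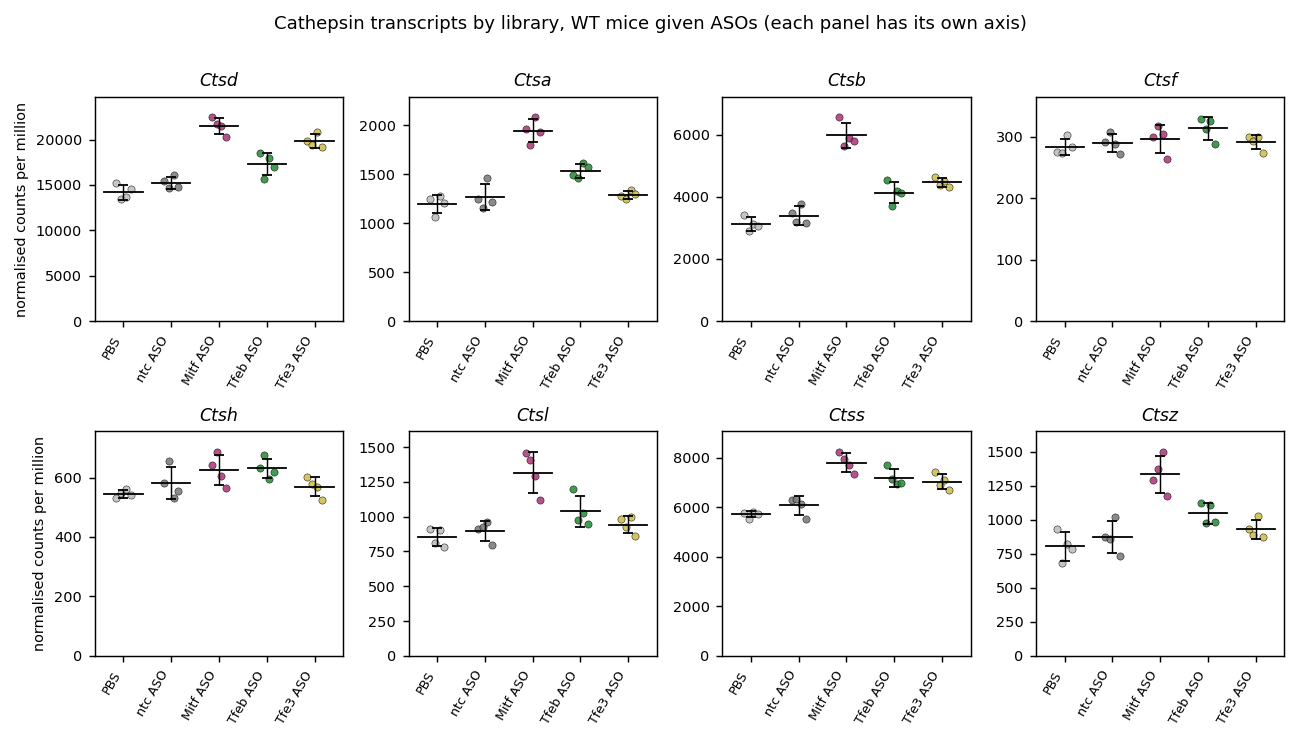
Normalised CPM of the 8 listed cathepsins (y axes from 0, each with its own scale) in every WT library by treatment (x axes); lines are means and bars 1 SD of 4 libraries. The Mitf ASO points lie above the ntc ASO points for Ctsd, Ctsa, Ctsb, Ctsl, Ctss and Ctsz, and overlap them for Ctsf and Ctsh.

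The ASOs were also compared with each other. With the Mitf ASO, 5 members were higher than with the Tfe3 ASO, where 2.63% of all genes were higher and 1.13% lower: Ctsa (0.59 ± 0.04, adjusted p = 1.35e-07), Ctsz (0.52 ± 0.07, adjusted p = 0.000119), Ctsl (0.48 ± 0.05, adjusted p = 1.42e-05), Ctsb (0.42 ± 0.04, adjusted p = 1.07e-05) and Ctss (0.15 ± 0.04, adjusted p = 0.0378). The call on Ctss was lost in 14 of 28 alternatives (adjusted p up to 0.348), and that on Ctsd was not made (0.12 ± 0.04, adjusted p = 0.157). Against the Tfeb ASO, 5 members were higher, where 1.67% of all genes were higher and 1.86% lower: Ctsb (0.53 ± 0.04, adjusted p = 1.28e-06), Ctsz (0.35 ± 0.07, adjusted p = 0.00932), Ctsa (0.34 ± 0.04, adjusted p = 0.000179), Ctsl (0.34 ± 0.05, adjusted p = 0.00128) and Ctsd (0.32 ± 0.04, adjusted p = 0.000385). Between the Tfeb and Tfe3 ASOs, 1.62% of all genes passed in either direction. Ctsa was higher with the Tfeb ASO (0.25 ± 0.04, adjusted p = 0.00586) and Ctsd lower (-0.20 ± 0.04, adjusted p = 0.0245), with no overlap of the libraries in either case. Of all genes, 4.43% had no overlap between these ASOs. Neither call was made without the block on the grp number or without Tfeb ASO replicate 2, and that on Ctsd was lost without any of Tfeb ASO replicates 3 and 4 and Tfe3 ASO replicates 2 and 3 (adjusted p = 0.058 to 0.0739).

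**Figure D4:**
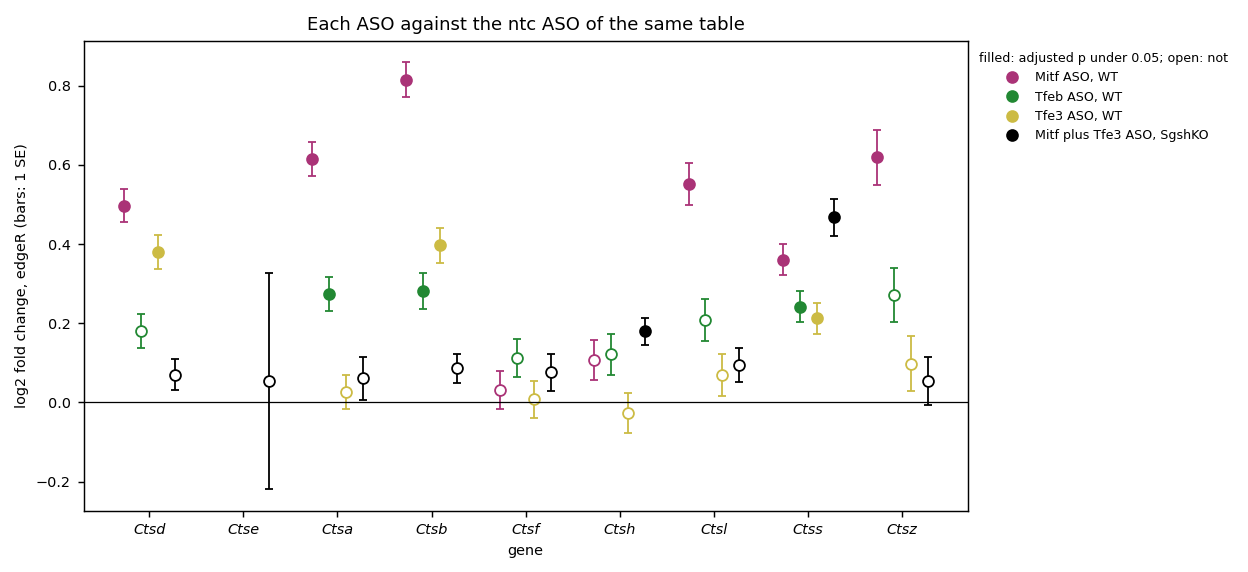
Log2 fold change of each ASO against the ntc ASO of its own table (y axis, bars 1 SE, edgeR) for each listed cathepsin (x axis); filled points passed an adjusted p of 0.05. The Mitf ASO in WT has 6 filled points, the Tfeb and Tfe3 ASOs 3 each, and the combination in SgshKO 2 (Ctss and Ctsh).

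Across all genes tested, 5.77% were higher with the Mitf ASO, 0.564% with the Tfeb ASO and 1.46% with the Tfe3 ASO. With these ASOs 5.21%, 0.214% and 0.701% were lower. Among genes that act with cathepsins, the Mitf ASO raised 3 of 5 other peptidases, Dpp7 by 1.12, Tpp1 by 0.45 and Scpep1 by 0.36. It raised 4 of 7 listed inhibitors and chaperones, Cst7 by 1.45, Cstb by 0.49, Grn by 0.47 and Psap by 0.35, and both partners of Ctsa, Neu1 by 0.27 and Glb1 by 0.24. Of 6 listed sorting genes, Gnptg rose by 0.47. The Tfeb ASO raised 3 of 7 inhibitors and chaperones, Cst3 (0.26), Grn (0.23) and Psap (0.23), and no gene of the other lists. The Tfe3 ASO raised Cst7 (1.17) and Cst3 (0.31), and Neu1 fell by 0.31. Ctsc gave 0.18 ± 0.05, adjusted p = 0.0372, with the Mitf ASO.

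In SgshKO mice, the combined Mitf and Tfe3 ASOs were compared with the ntc ASO. Of the 9 listed members 2 rose, Ctss and Ctsh, where 4.84% of 10589 genes were higher and 4.5% lower, and none fell. The members' median log2 fold change was 0.08, beside 0.00 for all genes. Ctss had levels of 5461, 6451 and 7012 (lowest, median and highest of 8) with the ntc ASO and 7907, 8818 and 9141 with the combination. All 8 libraries of the combination lay above all 8 of the ntc ASO, and for 1.06% of all genes the treatments did not overlap. The fold change was 0.47 ± 0.05, adjusted p = 1.14e-05. It was present within both subgroups, with 6042 ± 672 (mean ± SD, n = 4) against 8705 ± 465 in grp 1 and 6521 ± 109 against 8653 ± 518 in grp 2. Ctsh had levels of 311, 322 and 343 with the ntc ASO and 342, 368 and 389 with the combination, and the highest ntc library overlapped the lowest of the combination. Its fold change was 0.18 ± 0.03, adjusted p = 0.00404, with 318 ± 7.22 against 359 ± 17.9 in grp 1 and 329.9 ± 9.74 against 375 ± 17.7 in grp 2. Within a subgroup alone it did not pass (adjusted p = 0.101 in grp 1 and 0.0613 in grp 2).

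The other 5 members that rose with the Mitf ASO in WT mice did not pass here. Ctsb had 7159.8, 7775 and 8606 with the ntc ASO and 7867, 8325 and 8743 with the combination, and Ctsd had 15329, 17626 and 19516 and 17162, 18405 and 19584. The libraries of both groups overlapped for each. By subgroup, mean Ctsb was 7459 with the ntc ASO and 8315 with the combination in grp 1, and 8289 and 8374 in grp 2. Ctsd means were 16538 and 18389 in grp 1 but 18672 and 18515 in grp 2. For Ctsa they were 1432 and 1605, then 1728 and 1677, and for Ctsz 1012 and 1142, then 1149 and 1099. Ctsl means were higher with the combination in both subgroups (1555 and 1628, then 1374 and 1498). Whether the response differed between subgroups was not tested. The fold changes were 0.07 ± 0.04, adjusted p = 0.287, for Ctsd, 0.06 ± 0.05, adjusted p = 0.52, for Ctsa and 0.09 ± 0.04, adjusted p = 0.152, for Ctsb. They were 0.09 ± 0.04, adjusted p = 0.18, for Ctsl, 0.05 ± 0.06, adjusted p = 0.617, for Ctsz and 0.08 ± 0.05, adjusted p = 0.326, for Ctsf. The 95% interval of the Ctsb fold change was 0.01 to 0.17 and that of Ctsa -0.06 to 0.18. Ctse was detected in all 16 libraries at 2.20 to 8.50 with the ntc ASO and 3.07 to 9.12 with the combination (0.05 ± 0.27, adjusted p = 0.925). Median Mitf was 15.0 with the combination and 73.4 with the ntc ASO in SgshKO mice. In WT mice it was 1.58 with the Mitf ASO and 45.0 with the ntc ASO. Median Tfe3 was 79.3 with the combination and 173 with the ntc ASO in SgshKO mice. In WT mice it was 38.4 with the Tfe3 ASO and 199 with the ntc ASO. The WT and SgshKO ASO tables were counted separately. Genotype, ASO, table and remaining target transcript vary together. The difference between the Mitf ASO in WT and the combination in SgshKO was therefore not tested. Mrc1, the single border macrophage marker listed, was 116 to 183 with the ntc ASO and 155 to 195 with the combination (0.22 ± 0.05, adjusted p = 0.014), and its part in the Ctss and Ctsh results was not tested. The 6 listed neutrophil markers summed to 1.03 to 564 with the ntc ASO and 0.996 to 358 with the combination. By subgroup the 16 libraries gave 0.996 to 42.3 in grp 1 and 71.3 to 564 in grp 2.

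**Figure D5:**
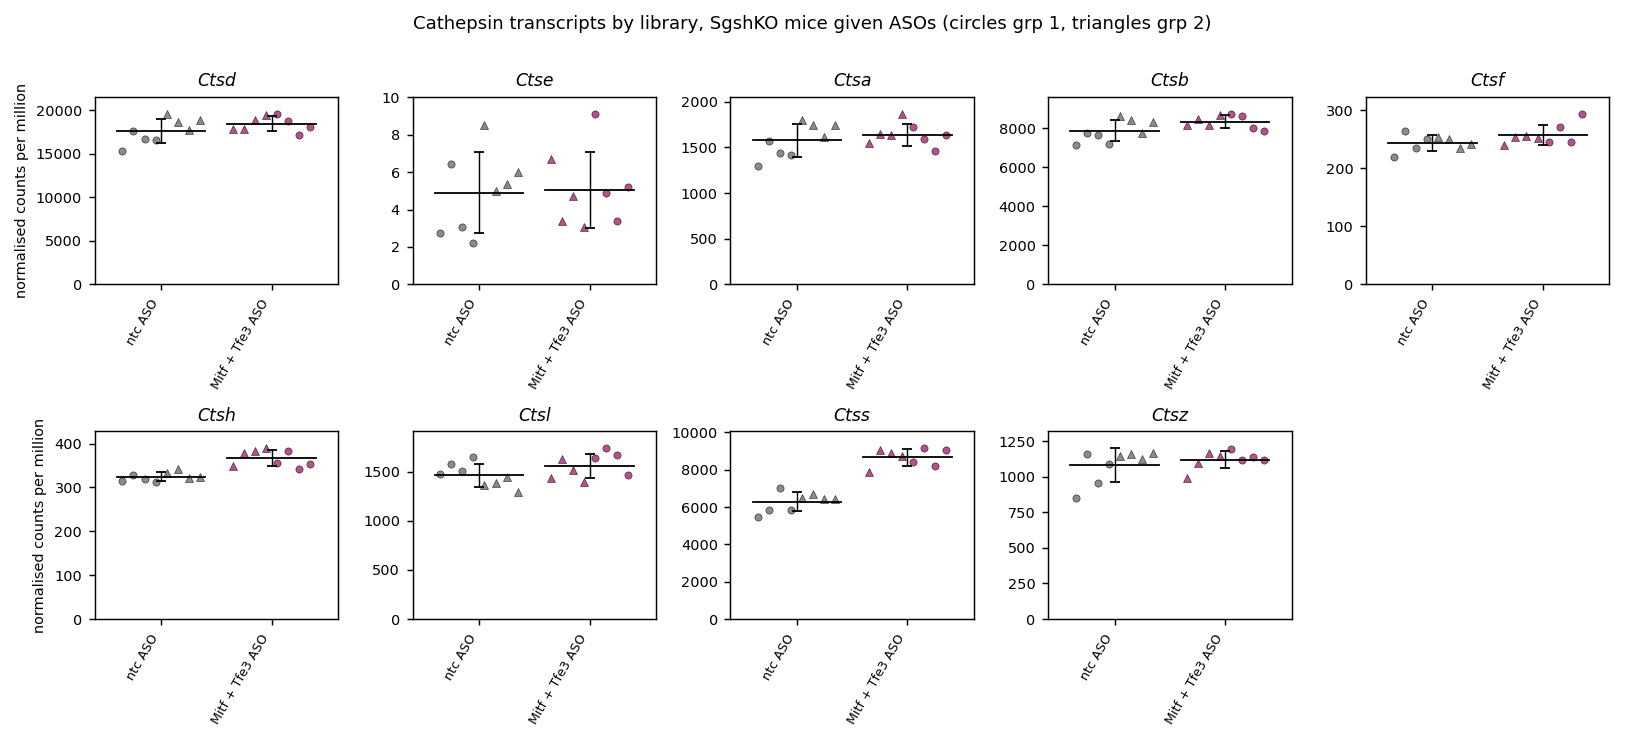
Normalised CPM of the 9 listed cathepsins (y axes from 0, each with its own scale) in every SgshKO library by treatment (x axes); circles are grp 1 and triangles grp 2, lines are means and bars 1 SD of 8 libraries. The groups are apart for Ctss and overlap for the other 8.

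With the combination, 4.84% of all genes tested were higher and 4.5% lower. Of the genes that act with cathepsins, 3 of 5 other peptidases fell, Dpp7 by 0.29, Scpep1 by 0.18 and Tpp1 by 0.13. All 3 were genes that were higher in SgshKO than WT at each age. Of 7 listed inhibitors and chaperones, Cst3 rose by 0.68 and Psap by 0.16, while Cst7 fell by 0.38. Gnptg was the 1 of 7 sorting genes that rose (0.22). Glb1 and Neu1 gave -0.02 and -0.16 and did not pass.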

How the data were processed

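PolyA RNA of sorted microglia was measured in 58 libraries. Raw counts per gene were used as deposited, in 3 tables (age series, WT ASO, SgshKO ASO). The age series also had deposited TPM values, and each ASO table had normalised signal values that the authors name as batch-corrected, by a method not given in the sources used here. The submitters' processing notes name STAR 2.5.3a, kallisto 0.44.0, HOMER 4.11, DESeq2 1.36.0, R 4.2.3 and mm10, with no role or order. The counting tool, its strand setting and the filter behind the shorter ASO tables are not given in the sources used here.

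Each table was fitted as 1 model over all its genes with edgeR 4.0.16 in R 4.3.3: genes with low counts removed by filterByExpr (minimum count 10), TMM factors, quasi-likelihood test, Benjamini-Hochberg adjustment, threshold 0.05. The terms were the 6 groups in the age series, and treatment plus the grp number of the titles in the ASO tables, where each WT treatment has each of 4 numbers once. For PBS replicate 4 the title says grp 4 and the column header grp 3, and the title was followed. With grp 3, unlike in the model used, edgeR called Ctsd higher with the Tfeb ASO (adjusted p = 0.0419). Normalised CPM values use TMM library sizes. Alternatives were DESeq2 1.42.0, RLE factors, other filters, replicate block, fewer groups per model, limma 3.58.1 on log2 of TPM or batch-corrected signal plus 1 (or 0.1 for TPM), and each library left out. The scripts were tested on simulated data. Total counts per library set the precision, which is low for Ctse and Ctsk.

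The members and lists were chosen with earlier results of these data known. Named are all 10 members; other genes starting with Cts that passed the filter; list genes that passed, at most 4 per list and comparison by absolute fold change; Sgsh, Mitf, Tfeb and Tfe3; and the 3 genes nearest in pattern to the called member with the highest fold change at 8 months (log2 CPM, prior count 1). No called member was lower at 8 months. Summed levels of 9 marker lists are given with the age results; 1 marker of the microglial list is not reported here.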

Additional observations from a re-analysis of the deposited data

Results flagged for a closer look

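The 1 library that stood apart from its group was grp 2 replicate 1 of the combined Mitf and Tfe3 ASOs in SgshKO mice, for Ctsz: it had 990.8 normalised CPM, and the other 7 libraries had 1097 to 1192. Groups of 2 or 3 libraries were not checked. Of the 88 groups of a member and its 4 to 8 libraries that were, this was the only one with such a gap; chance flags about 1 in 20 groups.

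For 5 members the log2 fold change of SgshKO against WT was higher at 8 months than at 3 weeks by edgeR's test of the difference itself. The log2 fold changes differed by 1.15 for Ctsl, 0.82 for Ctsh, 0.75 for Ctss, 0.72 for Ctsz and 0.46 for Ctsb.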

How the results depend on the processing

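No result changed sign among those that passed their test under any alternative. The counts of members called at 4 months (7), at 8 months (8) and with the Mitf ASO (6) stayed within 1.5 times their value in every alternative. The replicate block moved the count for WT at 4 months against 3 weeks from 2 to 0, for WT at 8 against 4 months from 1 to 0 and for SgshKO at 8 against 4 months from 6 to 2. Same-numbered libraries of the age series share only a number: 1 of 39 pairs had a correlation of deviations over 0.1 (range -0.17 to 0.10). Of 40 pairs of WT ASO libraries 37 did, and of 8 pairs of SgshKO ASO libraries 6 did. With no replicate block the counts were 0 instead of 3 for the Tfeb ASO, 3 instead of 5 for the Mitf against the Tfeb ASO and 0 instead of 2 for the Tfeb against the Tfe3 ASO. DESeq2 gave 1 for the change of the SgshKO effect from 3 weeks to 4 months and 1 from 4 to 8 months (0 in edgeR), 2 for WT at 8 months against 4 months and 2 against 3 weeks (1 in edgeR), and 6 for the Tfeb ASO. Limma on TPM gave 1 for the effect from 3 weeks to 4 months, with or without its filter. It gave 0 for WT at 8 against 4 months at a pseudocount of 0.1, 0 with every gene above 0 for that comparison, and 0 with every gene above 0 for WT at 8 months against 3 weeks. Testing every gene with a count, or only the groups compared, also gave 0 for WT at 8 against 4 months. A covariate of Ddx3y minus Xist gave 0 for WT at 8 months against 3 weeks. For the Tfeb ASO, the model of its treatments alone gave 5 and the batch-corrected values 6. For the combined ASOs, grp 1 alone and grp 2 alone gave 1 each.

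Alternatives chosen after seeing the data left out the SgshKO libraries highest in neutrophil markers. Without all 3, the counts were 1 for WT at 4 months against 3 weeks, 0 for WT at 8 against 4 months, 2 for WT at 8 months against 3 weeks and 0 for SgshKO at 8 against 4 months. Without the 2 at 8 months, WT at 8 months against 3 weeks gave 2. Leaving out 1 library at a time gave 0 to 2 for WT at 4 months against 3 weeks, 0 to 3 at 8 against 4 months, 0 to 2 at 8 months against 3 weeks, 0 to 6 for SgshKO at 8 against 4 months, 2 to 6 for the Tfeb ASO and 0 to 2 for the Tfeb against the Tfe3 ASO. A group left with 1 library is assumed to vary like the others. The 2 libraries per genotype at 4 months limit every comparison with that age.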
